A study of Mus musculus with 12 samples.

Results

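Potassium channel genes were followed across the cerebellum of 12 mice. The set holds every protein-coding mouse gene whose symbol starts with Kcn and that had at least 10 reads in 4 or more libraries. These were 81 of the 94 protein-coding Kcn symbols, within 14675 protein-coding genes that met the same read minimum and 55401 genes counted in all. At the edge of the minimum, Kcnv2 met it in 4 libraries, while Kcnv1 met it in 3 and was left out with 12 others. The members fall into 12 families by symbol, and 60 of them had 10 reads or more in every library.

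The mice model spinocerebellar ataxia type 1, an inherited ataxia caused by a lengthened CAG tract in the gene of ataxin-1. Group WT DMSO held 4 wild-type mice, group Het DMSO 4 Atxn1 154Q/2Q knock-in heterozygotes, and group Het Hit 2 a further 4 such heterozygotes. All groups were injected into the peritoneum from 18 weeks of age in a pair of 5-day courses separated by 2 rest days, and the cerebellum was taken at 20 weeks after perfusion. Het Hit 2 mice received the compound Hit 2, one of a set meant to act selectively on CAG repeats, at 25 mg/ml in dimethyl sulfoxide (DMSO), and the other groups DMSO alone. No wild-type mice were given Hit 2, so an effect of the compound apart from the knock-in allele was not measured. Libraries are named by animal number, with 413, 425, 426 and 431 in WT DMSO, 409, 411, 420 and 429 in Het DMSO, and 410, 421, 422 and 430 in Het Hit 2.

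Potassium channels let potassium leave a neuron, which ends each action potential and sets the interval to the next. Purkinje cells, the output neurons of the cerebellar cortex, fire without input at high rates and depend on fast Kv3 channels and on calcium-activated BK and SK channels, while granule cells rely on Kv4 and on two-pore leak channels for their excitability. Mutations of Kcnd3 and Kcna1 orthologs are known causes of inherited ataxia in people, and lowered potassium channel transcripts in Purkinje cells are a known feature of several mouse ataxia models.

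Because the compounds of this series are directed at CAG repeats, the longest uninterrupted CAG run in the annotated transcripts of each member is shown first. The median member had a longest run of 2 CAG units. Runs of 5 units or more occurred in 3 of the 81 members (3.70%), against 1.52% of all genes with a coding transcript, a description with no test. Kcnn3, an SK channel subunit, held 7 units in codon frame from base 199 of the coding sequence of transcript Kcnn3-201, and Kcnh3 held 7 units in another frame from base 1287 of the coding sequence of Kcnh3-201. Kcnc1 held 5 units in an untranslated part. Both coding stretches are printed from the GENCODE M21 transcripts (GRCm38), 5′ to 3′, with the uninterrupted CAG run in capitals.
Kcnn3: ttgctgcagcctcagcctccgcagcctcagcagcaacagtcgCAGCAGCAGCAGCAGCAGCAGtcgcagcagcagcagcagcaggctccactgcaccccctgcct
Kcnh3: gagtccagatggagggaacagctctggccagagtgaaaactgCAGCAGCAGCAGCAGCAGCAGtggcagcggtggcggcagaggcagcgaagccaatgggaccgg

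A second sequence bears on the knock-in allele. Ataxin-1 acts in a complex with the repressor Capicua, which binds the octamers TGAATGAA and TCAATGAA. Both octamers were searched on both strands in the RefSeq promoter windows of GRCm38.p6, which run from 250 bases before to 50 bases after a start site. Of the 81 members, 58 had 1 or more windows in that table, 82 windows in all, and 2 windows (2.44%) held an octamer, against 666 of 32851 windows of all genes (2.03%). The windows with a match belonged to Kcnip4 and Kcnip1, both genes of proteins that bind Kv4 channels. They are shown in the direction of transcription up to base 20 of the transcript, with the octamer match, here on the reverse strand, in capitals. The Kcnip4 stretch is chr5:49285640-49285809 (minus strand) and the Kcnip1 stretch chr11:33843667-33843766 (minus strand), and the match starts 79 bases before the start site in Kcnip4 and at transcribed base 2 in Kcnip1. The Kcnip4 window is 1 of 2 windows listed for that gene.
Kcnip4: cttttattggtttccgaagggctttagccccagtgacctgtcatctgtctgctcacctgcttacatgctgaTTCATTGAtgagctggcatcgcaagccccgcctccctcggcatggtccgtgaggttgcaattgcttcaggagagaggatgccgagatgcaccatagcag
Kcnip1: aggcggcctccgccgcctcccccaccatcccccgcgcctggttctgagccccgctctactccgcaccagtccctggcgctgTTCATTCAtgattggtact
A match is a string in the sequence and not a measured binding site.

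Depth ranged from 15855751 to 45265719 reads assigned to genes per library. Levels are given as CPM, the usual count relative to library size, with library sizes scaled by the trimmed mean of M values (TMM). Library 411, labelled Het DMSO cerebellum, went against its tissue label. Its 10 granule cell markers summed to 218 CPM against 4089 to 9123 CPM in the other libraries, with Gabra6 at 0.606 CPM, its 10 Purkinje markers to 774 CPM against 3277 to 7415 CPM, and its 10 midbrain markers to 155 CPM against 3.40 to 59.2 CPM. Library 410 came next on each of these lists, and library 409 had 0.0795% of its reads on mitochondrial genes against 1.85% to 2.81% elsewhere. Xist was high only in WT libraries 425 and 426 (1393 and 1464 CPM, at most 0.290 CPM in the others). Every Het library was low in Xist, so comparisons of Het with WT libraries partly coincide with Xist level.

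**Figure D1:**
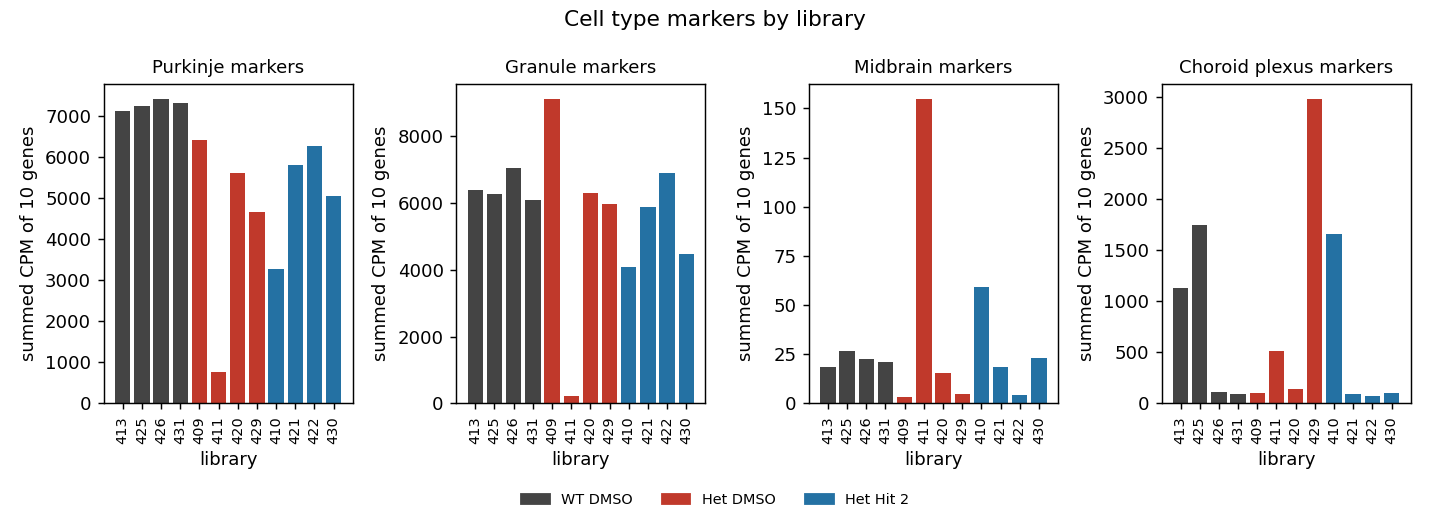
Summed CPM of 10 marker genes each for Purkinje cells, granule cells, midbrain and choroid plexus in the 12 libraries, 1 bar per library, coloured by group. Library 411 is near the floor for both cerebellar neuron lists (774 and 218 CPM) and highest for midbrain (155 CPM), and choroid plexus markers are high in 413, 425, 429 and 410.

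The members differed widely in level. Levels were compared between genes per kilobase of exon, in the 4 WT DMSO libraries. On that scale 29 members stood at 10 CPM per kb or more, 20 between 1 and 10, and 32 below 1. Among the highest was Kcnc1 (Kv3.1) at 111 ± 5.20 CPM per kb (SD, n = 4). Kcnt1, a sodium-activated channel also called Slack, stood at 77.1 ± 7.44 CPM per kb. They were followed by Kcnd2 (Kv4.2) at 62.9 ± 8.86, Kcna1 (Kv1.1) at 57.6 ± 6.12, Kcnk1 at 49.4 ± 4.02 and Kcna2 (Kv1.2) at 46.4 ± 2.11 CPM per kb. Kcnc1 and Kcnt1 were separated by more than their SDs, whereas Kcnd2 and Kcna1 lay within each other's SD. Kcna2 lay within the SD of Kcnk1, but Kcnk1 lay above that of Kcna2.

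Families held both high and low members. Within Kv3, Kcnc2 stood at 0.837 CPM per kb beside Kcnc1 at 111. Among the silent subunits, which form no channel alone and modify Kv2 channels, Kcng4 reached 27.6 CPM per kb and Kcnv2 0.0635. Kcnj9, Kcnj12, Kcnj10 and Kcnj3 led the inward rectifiers at 41.2, 34.6, 30.3 and 29.0 CPM per kb, and Kcnj5 was lowest in that family at 0.0632, within its spread of Kcnv2. The summed level of the 81 members was 7175 to 7877 CPM in WT DMSO, 5604 (411) to 9511 (409) in Het DMSO and 6188 to 7188 in Het Hit 2. Library 409 lay above the WT range, 422 within it and the other 6 Het libraries below it.

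**Figure D2:**
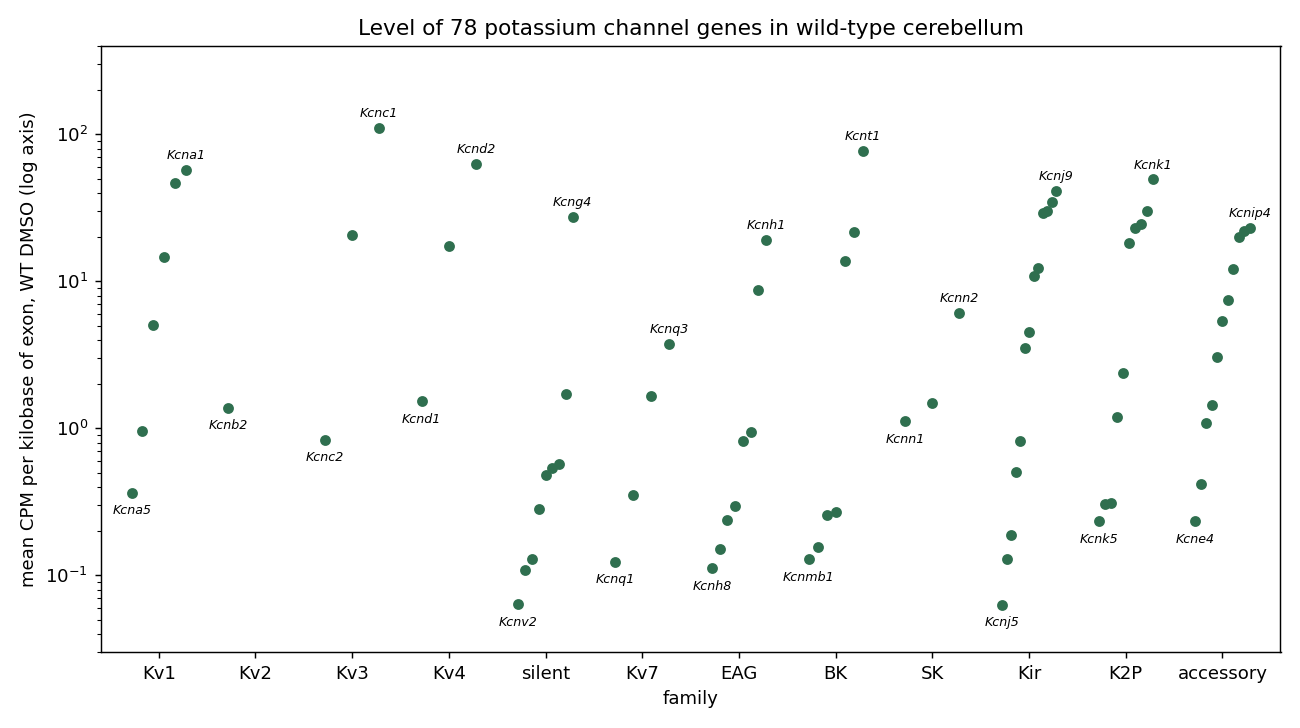
Mean CPM per kilobase of exon (log axis) of 78 of the 81 members in the 4 WT DMSO libraries, 1 point per gene, by family, with the highest and lowest gene drawn in each family named. BK includes Kcnt and Kcnu genes and the BK beta subunits. The points run from 0.0632 (Kcnj5) to 111 (Kcnc1) CPM per kb.

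For 8 members, all below 10 CPM per kb, a large share of reads lay on the strand opposite to the gene. The opposite strand held 92.6% of the reads for Kcnrg, 92.1% for Kcnmb1, 89.4% for Kcnq1, 66.4% for Kcnv2, 58.9% for Kcnj13, 46.9% for Kcnk4, 40.4% for Kcnh6 and 38.1% for Kcnh3. The counts used are those on the gene's own strand, and how far the opposite-strand reads affect them was not tested.

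The knock-in allele was examined through Het DMSO over WT DMSO. Of the 81 members 78 entered the test, since Kcnj4, Kcnj14 and Kcnv2 were below its filter. None of the 78 passed an edgeR adjusted p of 0.05, where 1 of 19378 genes did (0.00516%). At an unadjusted p under 0.05 there were 9 members, 5 higher in Het DMSO (Kcnb2, Kcnk2, Kcnab3, Kcnn1 and Kcng3, 4.77% of all genes) and 4 lower (among them Kcnh3, Kcnip4 and Kcnma1, 2.34%), together 11.5% of members against 7.11% of all genes. This split turned on libraries 411 and 409. It was 3 higher (4.79% of all genes) and 9 lower (2.54%) without 411, 1 higher (2.07%) and 10 lower (3.76%) without 409 and 411, and 2 higher (4.1%) and 13 lower (5.3%) with limma and a quality weight per library. Without 411 the log2 fold change went from 0.71 to 0.27 for Kcnab3, from 2.03 to 0.18 for Kcng3 and from 0.76 to 0.44 for Kcnn1, and none of these 3 had an unadjusted p under 0.05. The 2 groups did not overlap for 5 members, Kcnb2 on the higher side (1.94% of all genes) and 4 on the lower, among them Kcnh3, Kcnip4 and Kcnma1 (2.45%), which is 6.41% of members against 4.39% of all genes. With DESeq2 3 members passed (Kcnb2, Kcnip4 and Kcnma1; 0.222% of all genes), and with limma and a quality weight per library 3 passed (Kcnb2, Kcnma1 and Kcnh3; 0.506% of all genes). Without library 411 the edgeR test called Kcnb2 alone, and 9 of 19742 genes (0.0456%).

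The compound was compared through Het Hit 2 over Het DMSO. None of the 78 members passed an edgeR adjusted p of 0.05 (0.0% of all genes), none had an unadjusted p under 0.05 (1.55% of all genes), and for none were the 2 groups separate (1.03% of all genes). DESeq2 and limma with quality weights also called 0 members, and limma gave 7 at an unadjusted p under 0.05 (5.04% of all genes). Without library 411, 18 of 79 members had an unadjusted p under 0.05 against 5.96% of all genes, 10 higher (2.22% of all genes) and 8 lower (3.74%), and none passed the adjusted threshold (0.0%). The count of lower ones depended on library 409, since without 409 and 411 10 were higher (2.1%) and 1 lower (1.62%), and without 409, 410 and 411 6 were higher (2.5%) and 3 lower (2.66%). Without 411 alone the smallest adjusted p was 0.630 in edgeR, and among the higher members were Kcnh5, Kcnt2 and Kcna5, with log2 fold changes of 2.29, 2.12 and 1.70. These 3 genes were high in libraries 410 and 430 of the Het Hit 2 group and low in 421 and 422.

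Treated knock-in mice were also set against wild-type mice. In Het Hit 2 over WT DMSO, 0 of 78 members passed an edgeR adjusted p of 0.05 (0.00516% of all genes) and 5 had an unadjusted p under 0.05 against 1.71% of all genes. Kcnb2 and Kcnk2 were the 2 higher ones (0.748% of all genes) and Kcnip4, Kcnma1 and Kcnh3 the 3 lower ones (0.96%). The groups did not overlap for 9 members, 3 higher (Kcnb2, Kcnd1 and Kcnk2, 2.9% of all genes) and 6 lower (among them Kcna2, Kcnc1, Kcnh3, Kcnip4 and Kcnma1, 3.42%), which is 11.5% of members against 6.32% of all genes. With DESeq2 1 member passed (Kcnb2; 0.124% of all genes), and with limma and quality weights 4 passed (Kcnb2, Kcnk2, Kcnip4 and Kcnh3; 1.14% of all genes). This comparison shares its WT libraries with Het DMSO over WT DMSO, so the recurrence of names is not independent. A test of any difference among the 3 groups called 0 of 78 members (0.00516% of all genes), with 6 at an unadjusted p under 0.05 (3.11% of all genes).

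A comparison of both Het groups together over WT DMSO was added after the data were examined. In it Kcnb2 passed the edgeR threshold, 1 of 78 members against 10 of 19378 genes (0.0516%). The 8 Het libraries and the 4 WT libraries did not overlap for 5 members, Kcnb2 on the higher side (0.619% of all genes) and 4 on the lower, among them Kcnh3, Kcnip4 and Kcnma1 (1.18%), together 1.8% of all genes. Without 409, 410 and 411 the same comparison called these 5 members, against 1.18% of all genes. Single genes are described next, by family.

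**Figure D3:**
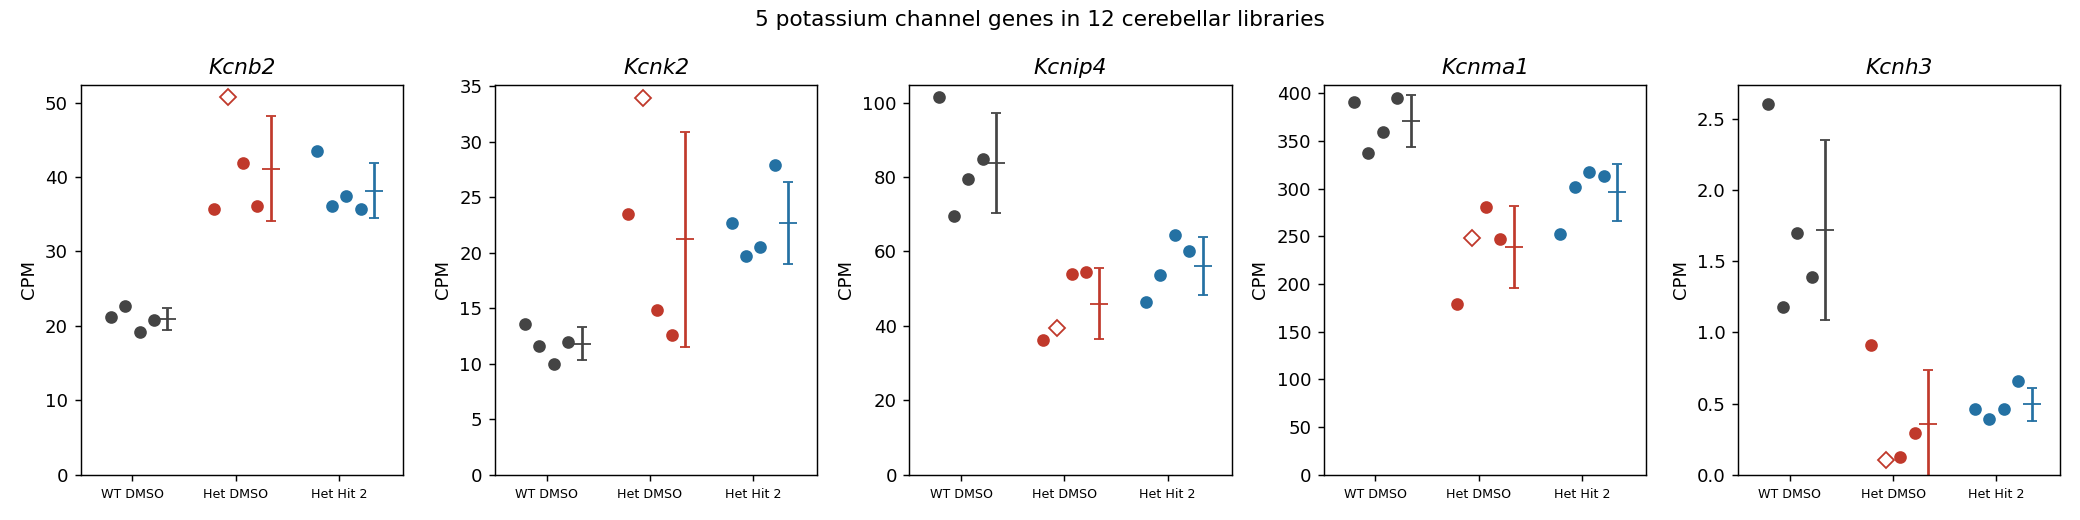
CPM of 5 members in the 12 libraries, 1 point per library, with the mean and SD of the 4 libraries at the right of each group (bars are cut at 0), each axis starting at 0. The open diamond is library 411. Kcnb2 is higher in all 8 Het libraries than in any WT library, and Kcnip4, Kcnma1 and Kcnh3 are lower in all 8.

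Kcnb2 (ENSMUSG00000092083; chromosome 1, 15287254 to 15723750, plus strand, GRCm38) encodes Kv2.2, a pore subunit of slow delayed rectifier channels. Its level was 21.2, 22.7, 19.1 and 20.8 CPM in WT libraries 413, 425, 426 and 431. In Het DMSO it was 35.6, 50.8, 41.9 and 36.2 CPM in 409, 411, 420 and 429, and in Het Hit 2 it was 43.5, 36.1, 37.4 and 35.7 CPM in 410, 421, 422 and 430. Every Het library lay above every WT library, and the 2 Het groups overlapped. Means were 20.9 ± 1.46, 41.1 ± 7.03 and 38.2 ± 3.65 CPM (SD, n = 4 each). The log2 fold change was 0.97 for Het DMSO over WT DMSO (SE 0.13, adjusted p 0.0733 in edgeR) and 0.87 for Het Hit 2 over WT DMSO (SE 0.13, adjusted p 0.1004 in edgeR). In each, the unadjusted two-sided p of an exact permutation of libraries was 0.0286, the smallest that 4 against 4 can give. For both Het groups over WT DMSO it was 0.92 (SE 0.12, adjusted p 0.0232 in edgeR), and for Het Hit 2 over Het DMSO it was -0.11 (SE 0.13, adjusted p 0.898 in edgeR).

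Kcnb2 was as far apart between genotypes without the libraries that stood apart. With 411 left out, Het DMSO over WT DMSO gave a log2 fold change of 0.87 (adjusted p 0.0206 in edgeR), and without 409, 410 and 411 it was 0.89 (adjusted p 0.00248 in edgeR). With a term for Xist the value stayed at 0.97 and the edgeR adjusted p was 0.449. The 2 WT libraries low in Xist (413 and 431) had 21.2 and 20.8 CPM and the 2 high in Xist 22.7 and 19.1 CPM. The added comparison of both Het groups lost its call with the Xist term (adjusted p 0.421 in edgeR) and without any 1 of 9 single libraries (410, 413, 420, 421, 422, 425, 426, 430 or 431), while its log2 fold change stayed between 0.86 and 0.96.

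Kcnc1 encodes a fast Kv3 subunit that ends the action potential quickly in granule cells. It was 1020.2 to 1124 CPM in WT DMSO, 362 (411) to 1512 (409) in Het DMSO and 658 to 955 in Het Hit 2. The Het Hit 2 libraries all lay below the WT libraries, but the log2 fold change was -0.40 (SE 0.32, adjusted p 1.000 in edgeR). Kcnc4 (Kv3.4) was 51.5 to 95.4, 56.9 to 101 and 35.9 to 72.4 CPM in the 3 groups, which overlapped. Kcnc2 (Kv3.2) followed single libraries, at 124 CPM in 411, 35.9 in 410, 25.6 in 430 and 14.0 in 413, and 0.621 to 10.1 CPM in the other 8.

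Of the Kv1 subunits, which keep axons and basket cell terminals from firing repeatedly, Kcna1 was 245 to 315, 218 to 461 and 247 to 309.8 CPM in the 3 groups. Kcna2 was 522 to 578 CPM in WT DMSO, 468 to 621 in Het DMSO and 471 to 514 in Het Hit 2. The last group was separate from WT DMSO, and the log2 fold change was -0.18 (SE 0.12, adjusted p 1.000 in edgeR). Kcna6 was 75.2 to 101, 62.3 to 179 and 65.8 to 107 CPM, and its highest value was in 411. None of the 6 tested Kv1 genes had an unadjusted p under 0.05 with all 12 libraries, where 7.11%, 1.55% and 1.71% of all genes did in the 3 comparisons of groups. Without 411 2 were higher at that p in Het Hit 2 over Het DMSO (Kcna4 and Kcna5, log2 fold changes 1.16 and 1.70, against 2.22% of all genes). In Het Hit 2, Kcna4 was 15.5 and 9.10 CPM in 410 and 430 and 3.31 and 3.91 CPM in 421 and 422.

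Kv4 channels carry the transient A-type current of granule cells. Kcnd2 was 285 to 378 CPM in WT DMSO, 86.9 (411) to 439 (409) in Het DMSO and 246 to 393 in Het Hit 2. Kcnd3 (Kv4.3) was 128, 178, 185 and 175 CPM in WT DMSO, 150.1, 136, 187 and 165 in Het DMSO, and 133, 144, 128 and 140.1 in Het Hit 2. Its 3 higher WT libraries lay above all of Het Hit 2, and 413 lay just below its lowest library. For Het Hit 2 over WT DMSO its log2 fold change was -0.29 (SE 0.14, adjusted p 1.000 in edgeR). Kcnd1, at lower level, was 6.93 to 9.35 CPM in WT DMSO and 9.44 to 10.6 CPM in Het Hit 2, without overlap, and the log2 fold change was 0.27 (SE 0.21, adjusted p 1.000 in edgeR).

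Kcnip4 (ENSMUSG00000029088; chromosome 5, 48389502 to 49524907, minus strand, GRCm38) encodes a calcium-binding auxiliary subunit of Kv4 channels, and is the gene with the Capicua octamer shown above. It stood at 101, 69.6, 79.4 and 84.8 CPM in WT DMSO. In Het DMSO it was 36.2, 39.3, 54.0 and 54.5 CPM, and in Het Hit 2 it was 46.4, 53.8, 64.3 and 60.1 CPM. All 8 Het libraries lay below the lowest WT library, and the Het groups overlapped. The WT libraries low in Xist (413 and 431) had 101 and 84.8 CPM, and those high in Xist (425 and 426) 69.6 and 79.4 CPM. The log2 fold change was -0.87 for Het DMSO over WT DMSO (SE 0.17, adjusted p 0.259 in edgeR, DESeq2 adjusted p 0.00351), -0.58 for Het Hit 2 over WT DMSO (SE 0.17, adjusted p 1.000 in edgeR) and 0.29 for Het Hit 2 over Het DMSO (SE 0.17, adjusted p 0.898 in edgeR). Without 411 the first was -0.79 (adjusted p 0.366 in edgeR), and without 409, 410 and 411 both Het groups over WT DMSO gave -0.56 (adjusted p 0.0307 in edgeR).

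Kcnip1, the other gene with an octamer, was 27.99 to 40.9 CPM in WT DMSO, 21.9, 42.3, 21.5 and 18.7 in Het DMSO and 23.3 to 31.5 in Het Hit 2. Its 3 Het DMSO libraries other than 411 were below all WT libraries. For Het DMSO over WT DMSO its log2 fold change was -0.35 (SE 0.24, adjusted p 0.627 in edgeR), and -0.66 without 411 (adjusted p 0.474 in edgeR). Kcnip2 and Kcnip3, the remaining genes of this kind, had no unadjusted p under 0.05 in a comparison of 2 groups with all libraries.

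Calcium-activated channels shape the pause after a Purkinje spike. Kcnma1 (ENSMUSG00000063142; chromosome 14, 23289431 to 24014491, minus strand, GRCm38) encodes the BK pore. Its level was 390.4, 338, 359 and 395 CPM in WT DMSO, 179, 248, 281 and 247 CPM in Het DMSO, and 253, 302, 317 and 314 CPM in Het Hit 2. All 8 Het libraries were below all WT libraries, with 409 lowest, and Het Hit 2 overlapped Het DMSO. The WT libraries low in Xist (413 and 431) had 390.4 and 395 CPM, and those high in Xist (425 and 426) 338 and 359 CPM. On the log2 scale the fold change was -0.63 for Het DMSO over WT DMSO (SE 0.15, adjusted p 0.535 in edgeR, DESeq2 adjusted p 0.0131), and -0.64 without library 411 (adjusted p 0.444 in edgeR). Het Hit 2 over WT DMSO gave -0.32 (SE 0.15, adjusted p 1.000 in edgeR). Het Hit 2 over Het DMSO gave 0.31 (SE 0.15, adjusted p 0.898 in edgeR), and 0.24 without 409, 410 and 411. The higher Kcnma1 level after Hit 2 therefore did not pass the test.

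The Purkinje marker sum, like Kcnma1 and Kcnip4, was lower in every Het library than in any WT library. Among the Het libraries the order differed. Library 409 had the lowest Kcnma1 and Kcnip4 levels and the highest Purkinje sum, 6419 CPM. There Itpr1, Slc1a6 and Pvalb lay within their WT ranges (4659, 123 and 245 CPM), and the other listed Purkinje markers below theirs. The 10 Purkinje markers summed to 7112 to 7415 CPM in WT DMSO, 4668 to 6419 in Het DMSO without 411, and 3277 to 6262 in Het Hit 2, so that all Het libraries were below all WT libraries. All 10 markers had a lower mean in Het DMSO than in WT DMSO (median log2 fold change -0.88, 0 past an adjusted p of 0.05 and 1 at an unadjusted p under 0.05, against 0.00516% and 7.11% of all genes). Without 411 all 10 were still lower, with a median of -0.49, 0 past the adjusted threshold and 4 at an unadjusted p under 0.05 (2.54% of all genes). For Het Hit 2 over WT DMSO all 10 were again lower (median -0.52), 0 at an unadjusted p under 0.05 with all libraries (1.71% of all genes) and 7 without 411 (2.42% of all genes lower at that p). Their part in the values of Kcnma1 and Kcnip4 was not tested, and in whole tissue fewer Purkinje cells and less RNA per cell cannot be told apart. The sum of the 10 astroglial markers, at 3539 to 3972 CPM in WT DMSO and 2584 to 3101 CPM in the Het libraries, was also lower in all 8 Het libraries. Single markers differed, with Aldoc at 804 to 1281 CPM in WT DMSO and 551 to 700.1 CPM in the Het libraries, while Slc1a2 was highest in 411 (1835 CPM) and Aldh1l1 in 409 (79.0 CPM). Kcnb2 was above its WT range in all 8 Het libraries, and highest in 411 and 410 (50.8 and 43.5 CPM). The part of the marker differences in its values was not tested.

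The BK beta subunit Kcnmb4, which makes neuronal BK channels slow and toxin-resistant, was 42.3 to 51.2 CPM in WT DMSO, 46.8 to 59.4 CPM in 409, 420 and 429, 31.0 to 52.1 CPM in Het Hit 2 and 3.23 CPM in library 411. The SK subunits carry an afterhyperpolarization current that follows calcium entry. Kcnn2, the SK2 gene of Purkinje cells, was 40.3 to 48.9, 32.9 to 48.3 and 44.4 to 46.8 CPM in the 3 groups. Kcnn1 was 4.70 to 5.47, 4.04 to 14.3 and 5.16 to 8.34 CPM. Without 411, 1 of the 3 tested SK genes was lower in Het DMSO over WT DMSO at an unadjusted edgeR p under 0.05 (2.54% of all genes). At that p 1 was higher in Het Hit 2 over Het DMSO (2.22%).

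Kcnn3, the member with the longest CAG run in codon frame, stood at 17.8, 16.6, 13.3 and 14.2 CPM in WT DMSO. It was 14.2, 43.0, 13.5 and 16.1 CPM in Het DMSO and 25.5, 14.9, 12.8 and 19.0 CPM in Het Hit 2. Library 411 was highest and 410 next, and the other 10 libraries lay between 12.8 and 19.0 CPM. On the log2 scale Het Hit 2 over Het DMSO gave -0.27 (SE 0.36, adjusted p 0.898 in edgeR) with all libraries and 0.27 without 411 (adjusted p 0.648 in edgeR). Its sign in that comparison thus turned on library 411, and neither value passed the test.

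Kcnt1 was 678 to 829 CPM in WT DMSO, 279 (411) to 1304 (409) in Het DMSO and 537 to 821 in Het Hit 2, and the groups overlapped. Of the Kv7 genes, which form the M-current, none of the 5 members had an unadjusted p under 0.05 with all 12 libraries, where at most 7.11% of all genes did in a comparison of 2 groups. Without 409 and 411 1 was lower at that p in Het DMSO over WT DMSO (3.76% of all genes) and 1 higher in Het Hit 2 over Het DMSO (2.1%).

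Kcnh3 (ENSMUSG00000037579; chromosome 15, 99224861 to 99242817, plus strand, GRCm38) is a forebrain-type EAG channel gene with a non-frame CAG run of 7 units. It had 2 to 73 reads per library, and 38.1% of the reads at the gene lay on the opposite strand. Its level was 2.605, 1.18, 1.70 and 1.39 CPM in WT DMSO, 0.911, 0.101, 0.124 and 0.292 CPM in Het DMSO, and 0.463, 0.395, 0.460 and 0.657 CPM in Het Hit 2. All 8 Het libraries were below all WT libraries. On the log2 scale the fold change was -2.13 for Het DMSO over WT DMSO (SE 0.56, adjusted p 0.616 in edgeR), -1.79 for Het Hit 2 over WT DMSO (SE 0.56, adjusted p 1.000 in edgeR) and 0.35 for Het Hit 2 over Het DMSO (SE 0.58, adjusted p 0.903 in edgeR). Without 409, 410 and 411 the first was -2.94 (adjusted p 0.0458 in edgeR).

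Kcnk2 (ENSMUSG00000037624; chromosome 1, 189207930 to 189402273, minus strand, GRCm38) encodes TREK-1, a leak channel opened by stretch and lipids. It stood at 13.6, 11.6, 9.99 and 11.95 CPM in WT DMSO, 23.5, 33.9, 14.9 and 12.6 CPM in Het DMSO, and 22.6, 19.7, 20.5 and 27.9 CPM in Het Hit 2. Het Hit 2 was separate from WT DMSO, whereas library 429 of Het DMSO lay inside the WT range. The log2 fold change was 0.94 for Het Hit 2 over WT DMSO (SE 0.27, adjusted p 1.000 in edgeR, limma with quality weights adjusted p 0.00514) and 0.85 for Het DMSO over WT DMSO (SE 0.27, adjusted p 0.616 in edgeR). Without 409, 410 and 411 these were 0.94 (adjusted p 0.0248 in edgeR) and 0.21 (adjusted p 0.858 in edgeR). Het Hit 2 over Het DMSO gave 0.096 (SE 0.27, adjusted p 0.937 in edgeR) with all libraries and 0.73 without those 3 libraries (adjusted p 0.921 in edgeR). Kcnk9, the TASK-3 leak channel of granule cells, was 259 to 358, 212 to 546 and 282 to 361 CPM, and Kcnk1 and Kcnk10 were lowest in 411.

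Among the inward rectifiers, which hold the resting potential and clear potassium into glia, Kcnj10 (Kir4.1) of Bergmann glia and astrocytes was 129.9 to 202 CPM in WT DMSO, 110.2 to 298 in Het DMSO and 124 to 224 in Het Hit 2. Its highest values were in 411 and 410. Kcnj6, a G protein-gated subunit, was 76.3 to 90.5, 45.5 to 118 and 69.1 to 93.8 CPM. Kcnj13, a channel of the choroid plexus epithelium, was 13.8 CPM in 429, 9.71 in 425, 8.80 in 410 and 6.03 in 413, and 0.247 to 2.36 CPM in the other 8 libraries. Kcne2, an accessory subunit of the same epithelium, was 10.7, 6.41, 5.62 and 3.39 CPM in these 4 libraries and at most 0.757 CPM elsewhere. The choroid plexus markers summed to 1126 to 2982 CPM in the same 4 libraries and 73.9 to 509.5 CPM in the others, across all 3 groups.

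Over the whole set, the direction of the fold changes turned on libraries 411 and 409. In Het DMSO over WT DMSO 49 of 78 members were higher, with a median log2 fold change of 0.15 against 0.052 for all genes. Without 411, 35 of 79 were higher, with a median of -0.11 against 0.0070 for all genes. In Het Hit 2 over Het DMSO 22 of 78 were higher with a median of -0.16 (all genes -0.043), and without 411 40 of 79 were higher with a median of 0.041. By family, the median for Het DMSO over WT DMSO went from 0.57 to -0.57 in the EAG genes, the widest shift of the 12 families, and from 0.46 to -0.51 in the silent subunits. The direction also depended on library 409. With both 409 and 411 left out, Het DMSO over WT DMSO had 18 of 81 members higher and 63 lower, with a median of -0.23 (all genes -0.0051), and Het Hit 2 over Het DMSO had 57 higher and 24 lower, with a median of 0.24 (all genes 0.0094).

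**Figure D4:**
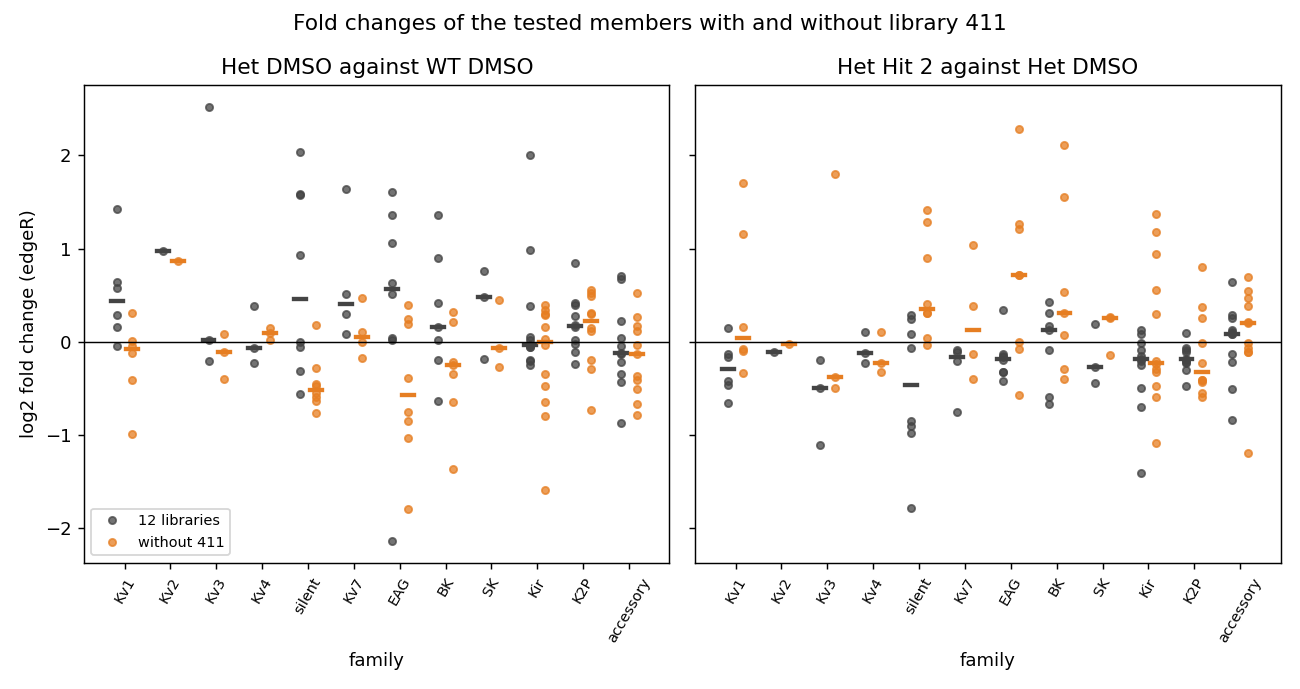
edgeR log2 fold change of tested members by family, with 3 members not drawn, with all 12 libraries (grey) and without library 411 (orange), for Het DMSO over WT DMSO (left) and Het Hit 2 over Het DMSO (right). Horizontal bars are family medians of the members drawn, which for the silent subunits go from 0.46 to -0.51 and for EAG from 0.57 to -0.57 on the left.

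In library 411, 38 of 81 members stood over 1 log2 unit above the median of the other 11 libraries and 16 over 1 unit below it (12.9% and 12.01% of the genes tested). The highest were Kcnc2 (5.70 units), Kcnh5 (4.39), Kcng1 (4.04), Kcnt2 (3.93), Kcnj5 (3.86) and Kcnf1 (3.83). The lowest were Kcnmb4 (-3.83), Kcnj12 (-2.54), Kcnv2 (-2.50), Kcnk10 (-2.22), Kcnh3 (-2.08), Kcnk12 (-2.06) and Kcnh1 (-2.06). Some of these genes had few reads per library, with 0 to 17 for Kcnv2, 2 to 73 for Kcnh3, 0 to 87 for Kcnj5 and 2 to 102 for Kcng1. Of the Kv1 genes 4 of 6 were above and 0 below, and of the silent subunits 6 of 9 were above and 2 below. Of the 10 two-pore genes 4 were above and 4 below, and Kcnc1 and Kcnd2 were below.

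Library 410 shared this order. For 28 of the 38 members above in 411 it was the highest of the other 11 libraries, and for 13 of the 16 below it was the lowest. It had 22 members over 1 unit above the median of the rest (7.18% of all genes), 430 had 12 (3.74%), 413 had 10 (2.50%) and 425 had 7 (1.60%), and each of the other 7 libraries besides 411 had at most 3. After 411, the granule marker sum was lowest in 410 (4089 CPM) and 430 (4485 CPM). The midbrain marker sum was 59.2 CPM in 410, whereas 430 at 23.2 CPM lay within the WT DMSO range of 18.5 to 26.8 CPM. Oligodendrocyte markers summed to 6827 CPM in 411 and 5684 CPM in 410, against 3570 CPM or less elsewhere, and microglial markers to 205 and 149 CPM, against 107 CPM or less. The part of these marker differences in the members' values was not tested.

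**Figure D5:**
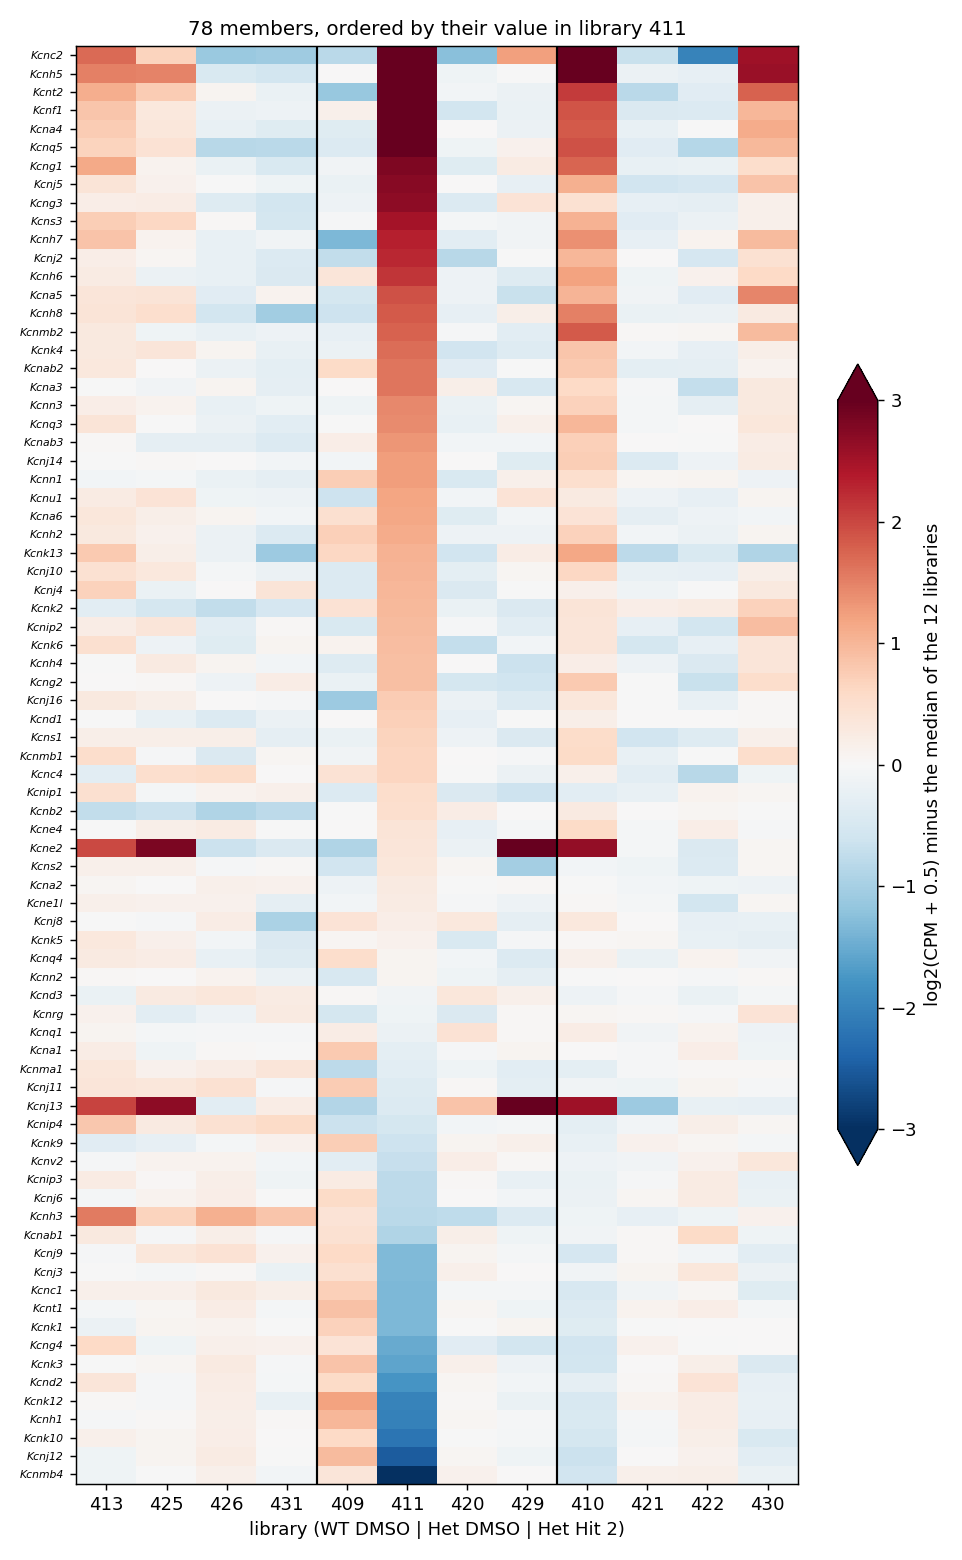
log2(CPM + 0.5) of 78 of the 81 members minus the median of the 12 libraries, in rows ordered by the value in library 411 and columns by library and group. The top of the column of library 411 is dark red (Kcnc2, Kcnh5) and its foot dark blue (Kcnmb4), and library 410 shows much the same order in paler colours. Library 430 shares the top (Kcnc2, Kcnh5) but not the whole order. There Kcna6, high in 411, is below its median, and Kcnh3, low in 411, is above.

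Genes of channel partners outside the Kcn symbols were counted from a list of 20, of which 18 were tested. None passed an edgeR adjusted p of 0.05 in any comparison, where 0.0% to 0.0516% of all genes did. In Het DMSO over WT DMSO 9 were higher and 9 lower, with a median log2 fold change of -0.017 and 2 at an unadjusted p under 0.05, Cntnap2 and Calm3, against 7.11% of all genes. Calm3 was high in 409 and 411 alone (1284 and 1038 CPM, and 578 to 776 CPM in the other 10), and without 411 only Cntnap2 was at that p. Cntnap2, which encodes the Caspr2 protein that gathers Kv1 channels along the axon, was 149.5, 141, 145 and 140.5 CPM in WT DMSO. It was 210.2, 275, 176 and 167 CPM in Het DMSO and 215, 176, 188 and 191 CPM in Het Hit 2, so that all Het libraries lay above all WT libraries. On the log2 scale the fold change was 0.52 for Het DMSO over WT DMSO (SE 0.15, adjusted p 0.616 in edgeR; 0.38 without 411) and 0.42 for Het Hit 2 over WT DMSO (SE 0.15, adjusted p 1.000 in edgeR). Amigo1, the partner of Kv2 channels, was 96.8 to 106, 80.8 to 149 and 84.5 to 92.0 CPM, and Dpp6 and Dpp10, partners of Kv4, had no unadjusted p under 0.05.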

How the data were processed

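RNA depleted of ribosomal RNA was sequenced as directional paired libraries from 12 mice. Per the submitters' processing notes, FastQC 0.11.9 and STAR 2.7.10a were used with the genome GRCm39 (mm39). The annotation release is not given in the sources used here. The authors deposited raw read counts per gene, 1 table per library. The counts on the strand holding most gene reads were used, and the other strand held 5.21% to 6.47%. Reads in no gene (44.7% to 54.6%) stayed out. Of 55401 identifiers 55141 matched GENCODE M21 (GRCm38), the source of symbols, exon lengths and coordinates, which are not on the build named in those notes. edgeR 4.0.16 (R 4.3.3; filterByExpr, TMM, quasi-likelihood, all 12 libraries, 1 coefficient per group, no covariate) tested 19378 genes two-sided with Benjamini-Hochberg adjustment and a threshold of 0.05. Single genes were also compared on log2 CPM (prior count 2) by exact permutation. DESeq2 1.42.0, limma 3.58.1 and sva 3.50.0 served the alternatives. The scripts were tested on simulated data. Animal numbers do not recur, so nothing was paired. Sequences came from RefSeq and GENCODE.

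Genes were named by a rule: those past the threshold, the 5 per direction with the smallest p in each of 3 comparisons at 1 CPM or more, a fixed set of 12 cerebellar channel genes, and, for levels, family extremes, groups that do not overlap and genes set apart in a library. Values of 3 members are not reported here singly; they remain in the counts and medians of the set. The members, lists and tests were chosen with earlier results of these data known. Kcnip1, Cntnap2, Amigo1, Dpp6, Dpp10, Kcnip2 and Kcnip3 were named after their values were seen. 9 marker lists of cell types were used. The astroglia, Purkinje, granule, midbrain and choroid plexus sums are in the text. Oligodendrocyte sums were 1331 to 6827 CPM, microglia 74.9 to 205, endothelium and mural cells 304 to 473 and blood 3.62 to 67.0.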

Additional observations from a re-analysis of the deposited data

Results flagged for a closer look

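In groups of 4 libraries, a library was marked where its gap to its nearest neighbour, as a share of the range of the group, exceeded Dixon's critical value. Of 66 checks (22 named genes in 3 groups) 7 were marked. Chance alone marks about 1 in 20 for genes chosen without their values. Many of these genes were named from the same values, so the count cannot be set against that rate. Library 411 of Het DMSO was marked in 4 of the 7. Kcnab3, a beta subunit of Kv1 channels, stood at 63.8 CPM in 411 against 23.7 to 29.1 CPM in the other Het DMSO libraries. Kcng3, a silent subunit, stood at 5.85 CPM in 411 against 0.249 to 0.834, Kcnh6 at 5.96 CPM against 0.626 to 1.38, and the BK subunit Kcnmb2 at 4.09 CPM against 0.584 to 0.809. In WT DMSO, library 413 was low for Kcnd3 at 128 CPM against 175 to 185, and high for Kcnmb2 at 1.14 CPM against 0.654 to 0.730. Library 426 was high for Kcnc1 at 1124 CPM against 1020.2 to 1037. No library of Het Hit 2 was marked. The 411 values stand beside its granule and midbrain marker sums of 218 and 155 CPM, and their part in these values was not tested.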

How the results depend on the processing

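Counts of members past the threshold depended on the tool and the libraries. For Het DMSO against WT DMSO, 0 members became 3 with DESeq2, 3 with limma and quality weights, 1 without 409 and 411, 3 without 409, 410 and 411, 1 at an adjusted p under 0.1, and 0 to 1 leaving out each library in turn (1 without 409 or without 411). For Het Hit 2 against WT DMSO, 0 became 1 with DESeq2, 2 with only the groups compared, 4 with limma, 2 without 409 and 411, 2 without 409, 410 and 411, and 0 to 1 leaving out each library (1 without 409 or 411). For any difference among the groups, 0 became 2 with DESeq2, 4 with limma, 3 without 409 and 411, 4 without 409, 410 and 411, 1 at an adjusted p under 0.1, and 0 to 1 leaving out each library (1 without 411). For both Het groups, 1 became 3 with DESeq2, 7 with limma, 0 with the Xist term, 3 without 409 and 411, 5 without 409, 410 and 411, and 0 to 2 leaving out each library. Counts over all genes moved too. In the order DESeq2, limma, without 409 and 411, and without 409, 410 and 411, they went from 1 to 43, 98, 18 and 84 for Het DMSO against WT DMSO, from 1 to 24, 221, 90 and 109 for Het Hit 2 against WT DMSO, from 1 to 41, 151, 54 and 132 for any difference, and from 10 to 56, 343, 122 and 237 for both Het groups (1 with the Xist term). With only the groups compared, Het Hit 2 against WT DMSO had 54. Het Hit 2 against Het DMSO stayed at 0 throughout. Dropping 409, 410 and 411, and pooling both Het groups, were chosen after the data were examined. No paired analysis was possible because animal numbers do not recur between groups. Directions turned in comparisons where the gene did not pass the threshold, and the cause was not tested. For Het DMSO against WT DMSO, without 409 and 411 and then without 409, 410 and 411, Kcna1 became -0.021 and -0.013, Kcnd3 0.067 and 0.076, and Kcnj10 -0.28 and -0.27. Limma gave 0.047 for Kcnd3 and -0.23 for Kcnj10. With 1 surrogate variable Kcnj10 was -0.27 and Kcnj6 0.13, and with the Xist term Kcnd3 was 0.072 and Kcnj6 0.038. Leaving out each library gave -0.12 to 0.31 for Kcna1, -0.11 to 0.0036 for Kcna2, -0.57 to 0.082 for Kcnc1, -0.53 to 0.099 for Kcnd2, -0.17 to 0.020 for Kcnd3, -0.35 to 0.21 for Kcnj10 and -0.32 to 0.16 for Kcnj6. For Het Hit 2 against Het DMSO, Kcna6 became 0.018 with limma, 0.21 without 409 and 411 and 0.046 without 409, 410 and 411. Leaving out each library there gave -2.14 to 0.041 for Kcng3 and -0.033 to 0.62 for Kcng4. Depth limits the low members: Kcnh3 had 2 to 73 reads per library, Kcng3 4 to 116 and Kcnmb2 13 to 81.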
